A study of Mus musculus with 7 samples.

Results

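The transcription factors that establish and hold the B cell programme were examined in lymphoma cell lines with and without the chromatin repressor Smchd1. The 10 genes Pax5, Ebf1, Tcf3, Ikzf1, Ikzf3, Foxo1, Bach2, Spib, Irf8 and Bcl11a were chosen by name, out of 27179 genes in the count files, of which 25275 had a symbol. RNA-seq was run on 7 lines of C57BL/6 background, derived from end stage lymphomas of male Eµ-Myc transgenic mice. In these mice the Myc oncogene is driven by the immunoglobulin heavy chain enhancer, so all 7 lines, controls included, carry forced Myc expression in the B lineage. The 3 wild-type lines had intact Smchd1, and the 4 Smchd1 null lines were, per the labels, homozygous for a gene trap of Smchd1. The study's methods instead write the null genotype as Smchd1MD1/MD1, and whether both names mean the same allele is not settled by the sources used here. Neither the age of the mice nor any treatment is given in the sources used here.

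B cell identity is built in steps. E2A, the product of Tcf3, and Ebf1 open the programme in early progenitors, with help from Ikaros (Ikzf1) and Foxo1, and Ebf1 and E2A then switch on Pax5, which activates B cell genes and silences genes of other lineages. Bach2 and Irf8 act in precursor and germinal centre B cells, Spib encodes the Ets factor Spi-B, Ikzf3 encodes Aiolos, and Bcl11a acts in early lymphoid progenitors. Counts are given below as CPM, which is what a gene would have if its library held 1e+06 assigned reads, and levels of different genes are compared only as CPM per kb, which divides by the gene length in the files.

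Library totals ran from 3626853 reads in wild-type replicate 1 to 7519549 in Smchd1 null replicate 4, so that a count of 3 corresponded to between 0.399 and 0.827 CPM. Smchd1 itself was at 219 to 248 CPM in the wild-type lines and at 22.6 to 28.7 CPM in the null lines, where it averaged 11.4% of the wild-type mean. Wild-type replicate 1 was the only library of batch 1 and the only single-end one, so the batch and that line cannot be told apart. Smchd1 null replicate 4 lay farthest from the rest of its group. Wild-type replicates 2 and 3 were much more alike than any other pair within a group, with a chi-square of 3.95 per gene against 17.5 to 63.2 for the other pairs, which is still above sampling noise. They were kept as separate samples, and the calls that rest on this are also given with them summed. The labels number the replicates without saying what separates them, so each p-value measures the spread between these libraries. The B lineage label was checked against its markers. Cd79b, a signalling chain of the B cell receptor, was at 262 to 444 CPM in all 7 lines, while the T cell genes Cd3e, Cd8a and Trac had 0 counts in every line. Cd22, a B cell inhibitory receptor, was at 180 to 341 CPM in 6 lines and at 25.4 CPM in Smchd1 null replicate 4. In that same line the pan-leukocyte phosphatase gene Ptprc, at 430 CPM, and the kinase gene Blk, at 44.8 CPM, were the highest of all 7. Cd79a, the partner chain of Cd79b, was at 100 CPM there and at 181 to 444 CPM elsewhere. Summed, the 6 defining markers had 904 CPM in that line, inside the 839 to 1459 CPM of the other lines. Of that sum 430 CPM was Ptprc, which was at 119 to 203 CPM elsewhere. Ms4a1, which encodes CD20, was under 1 CPM in all lines but Smchd1 null replicate 3.

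Of the factors that open the programme, Tcf3 (Entrez gene 21423, mm10 chromosome 10, 80409541 to 80433976) was at 522, 429 and 452 CPM in wild-type replicates 1 to 3. In Smchd1 null replicates 1 to 4 it was at 505, 543, 563 and 213 CPM. The first 6 of these values lie within 1.31-fold of each other, and the last line alone is low. Ebf1 (Entrez gene 13591, chromosome 11, 44618100 to 45008096) was at 54.0, 87.1 and 72.0 CPM in the wild-type lines and at 48.6, 57.2, 47.9 and 25.5 CPM in the null lines. The lowest wild-type line and the second null line overlap, and the last null line is again the lowest. Pax5 (Entrez gene 18507, chromosome 4, 44524748 to 44710694), which commits cells to the B lineage, was at 51.3, 80.2 and 78.0 CPM in the wild-type lines. It was at 64.9, 80.5, 85.0 and 16.6 CPM in the null lines. Apart from the last line the groups overlap fully. The gene length in the files is only 1208 bases for Pax5, so its counts come from those bases alone.

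The zinc finger factors of the Ikaros family had different patterns. Ikzf1 (Entrez gene 22778, chromosome 11, 11684962 to 11772930) was at 650, 429 and 395 CPM in the wild-type lines and at 727, 541, 754 and 628 CPM in the null lines. Wild-type replicate 1 lies inside the null range, and both other wild-type lines lie below it. Ikzf3 (Entrez gene 22780, chromosome 11, 98464610 to 98546031) was at 187, 131 and 134 CPM in the wild-type lines and at 91.2, 157, 169 and 17.8 CPM in the null lines. Its groups overlap, and the last null line is far below every other.

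Foxo1 (Entrez gene 56458, chromosome 3, 52268337 to 52350109), a forkhead factor that drives Rag and Il7r expression and is held in check by PI3K and Akt signalling, was at 125, 54.6 and 51.2 CPM in the wild-type lines. In the null lines it was at 58.7, 50.6, 68.7 and 91.9 CPM. Here wild-type replicate 1 is the highest line, Smchd1 null replicate 4 the next, and the other 5 lie close together. Bcl11a (Entrez gene 14025, chromosome 11, 24076564 to 24173558) was the most uneven member. Its CPM was 38.3, 3.12 and 4.10 in the wild-type lines and 18.7, 0, 6.95 and 89.4 in the null lines, where 0 counts in replicate 2 allow a level of up to 0.482 CPM. The same pair of lines that is high in Foxo1 is high in Bcl11a.

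Spib (Entrez gene 272382, chromosome 7, 44525995 to 44532087) was at 209, 136 and 177 CPM in the wild-type lines and at 218, 377, 340 and 443 CPM in the null lines. Every null line lies above every wild-type line, although null replicate 1 exceeds wild-type replicate 1 by little. Irf8 (Entrez gene 15900, chromosome 8, 120736358 to 120756694), which partners Ets factors such as Spi-B and PU.1 on DNA, was at 97.1, 70.9 and 89.99 CPM in the wild-type lines and at 73.3, 80.5, 74.3 and 8.11 CPM in the null lines. Bach2 (Entrez gene 12014, chromosome 4, 32238413 to 32586109), a repressor that holds back plasma cell genes, was at 233, 296 and 253 CPM in the wild-type lines and at 233, 309, 283 and 23.3 CPM in the null lines. In both genes 6 lines of both groups share a narrow range and the last null line stands far below it. The library kit does not mark strand, so reads of Bach2 and of the antisense transcript Bach2os cannot be separated where they overlap, but Bach2os was listed at no more than 0.984 CPM.

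**Figure D1:**
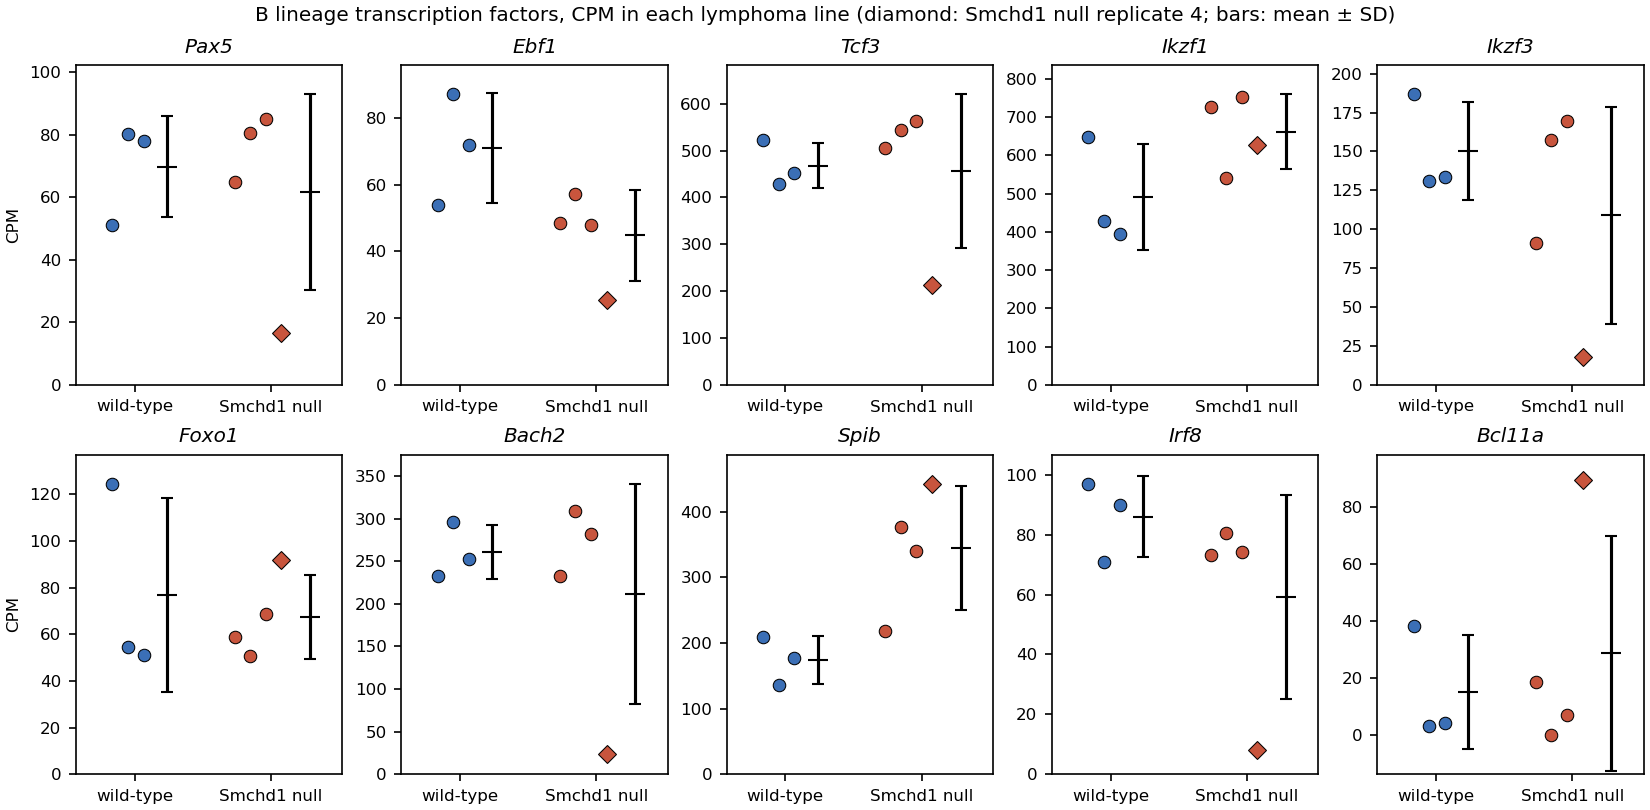
Level of each of the 10 factors in CPM (vertical axes, linear) in the 3 wild-type and 4 Smchd1 null lines. Points are single lines and the bars show the group mean with its SD; the points of the null group separate fully from wild-type in Spib alone, while Smchd1 null replicate 4 sits far below all other lines in Bach2, Irf8, Ikzf3, Pax5 and Tcf3.

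Per kb, Tcf3 was the most abundant of the 10 in 6 lines, with 132 ± 13.7 CPM per kb (SD, n = 3) in wild-type, followed by Ikzf1 with 95.2 ± 26.8 CPM per kb. Spib had 62.5 ± 13.1 and Pax5 57.8 ± 13.3 CPM per kb in wild-type, which do not differ beyond their spread. Ikzf3, Ebf1, Bach2 and Irf8 followed at 36.7 ± 7.68, 31.6 ± 7.36, 30.7 ± 3.77 and 30.4 ± 4.79 CPM per kb, with overlapping spreads. Ikzf3 was nevertheless above Irf8 in each wild-type line, at 45.5, 31.9 and 32.6 against 34.3, 25.0 and 31.8 CPM per kb. Foxo1 had 13.8 ± 7.47 CPM per kb and Bcl11a, the lowest, 2.16 ± 2.86. In the null lines the means (n = 4) were 129 ± 46.2 for Tcf3, 128 ± 18.9 for Ikzf1 and 124 ± 33.9 for Spib, and these 3 do not differ beyond their spread. Tcf3 was nevertheless first in null replicates 1 to 3, with 151 ± 8.38 CPM per kb (n = 3). In each wild-type line, too, Tcf3 was above Ikzf1, at 147, 121 and 128 against 126, 83.1 and 76.5 CPM per kb. In Smchd1 null replicate 4 the order was another one, with Spib first at 159 CPM per kb, then Ikzf1 at 122 and Tcf3 at 60.1, and with Ikzf3, Irf8 and Bach2 last at 4.35, 2.87 and 2.74.

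The null lines were compared with the wild-type lines to find genes whose RNA differs when Smchd1 is lost. Spib and Ikzf1 were higher and Ebf1 was lower in the null lines, in the fit of limma voom with sample weights that the study used. Spib had a log2 fold change of 1.04 (SE 0.201, 95% interval 0.58 to 1.5, limma FDR 0.0204), from a wild-type mean of 174 ± 36.4 CPM (SD, n = 3) to a null mean of 345 ± 94.6 CPM (SD, n = 4). Ikzf1 had a log2 fold change of 0.6 (SE 0.142, interval 0.28 to 0.93, limma FDR 0.0335), with means of 491 ± 138 and 662 ± 97.7 CPM. Ebf1 had a log2 fold change of −0.67 (SE 0.183, interval −1.09 to −0.25, limma FDR 0.0494), with means of 71.0 ± 16.6 and 44.8 ± 13.5 CPM. Thus 3 of 10 members were called, against 1466 of the 12303 genes tested, or 11.9%. By direction, 2 members were higher where 5.06% of all genes were, and 1 was lower where 6.85% were. The median log2 fold change over all genes was −0.006.

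These calls lean on the sample weights and on the alike pair of wild-type lines. The weights were 3.79 and 3.06 for wild-type replicates 2 and 3, 0.246 for wild-type replicate 1 and 0.249 for Smchd1 null replicate 4, so the wild-type side is set mostly by the alike pair. With that pair summed into a single sample, limma called 1 gene in all and no member, and the log2 fold changes were 0.85 for Spib (FDR 0.776), 0.34 for Ikzf1 (FDR 0.914) and −0.42 for Ebf1 (FDR 0.913), with only Spib under an unadjusted p of 0.05, as were 6.4% of all genes. Voom without sample weights called 0.0975% of genes and no member, and its FDR was 0.224 for Spib, 0.442 for Ikzf1 and 0.444 for Ebf1. The quasi-likelihood test of edgeR also called 0.0975% of genes and no member, and in both fits Spib was the single member with an unadjusted p under 0.05, a level that 11.3% of all genes reached in the first and 11.5% in the second. DESeq2 called 3.1% of genes and, among the members, Spib alone (DESeq2 FDR 0.0107). With 1 weight each for wild-type replicate 1 and Smchd1 null replicate 4 and a shared weight for the rest, 4.01% of genes and no member were called, and 3 members were under an unadjusted p of 0.05, as were 24.9% of all genes. By CPM alone, Spib was the single member whose groups did not overlap, where 13.2% of all genes did not. Without Smchd1 null replicate 4 all 3 calls stood in the weighted fit, with log2 fold changes of 1.01 for Spib, 0.59 for Ikzf1 and −0.59 for Ebf1 (limma FDR 0.0287, 0.0485 and 0.0483). Within batch 2, which leaves out wild-type replicate 1, they were 1.03, 0.63 and −0.68 (limma FDR 0.0248, 0.0275 and 0.0498). In that fit the alike pair is the whole wild-type group, so these FDR values rest on counting the pair as 2 samples.

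No difference was called for the other 7 members, and the intervals of their log2 fold changes were wide. Tcf3 had 0.19 (interval −0.2 to 0.57), Foxo1 0.12 (−0.29 to 0.52) and Pax5 −0.19 (−0.82 to 0.44). Ikzf3 had −0.18 (−1.02 to 0.66), Bach2 −0.23 (−1.17 to 0.71), Irf8 −0.28 (−1.15 to 0.59) and Bcl11a −1.12 (−4.79 to 2.54). For Ikzf3, Bach2, Irf8 and Bcl11a these intervals include changes of 2-fold in at least 1 direction. For Bcl11a the sign was not settled, as the log2 fold change was −0.07 without sample weights, 0.97 with edgeR, and 1.89 when Smchd1 null replicate 2, the line with 0 counts, was left out of the weighted fit. With wild-type replicates 2 and 3 summed the intervals were wider still, for example −1.32 to 1.47 for Pax5, −0.73 to 0.92 for Tcf3, −1.22 to 0.5 for Foxo1 and −2.11 to 1.93 for Bach2, and 6 of these 7 members had intervals that include a change of 2-fold.

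**Figure D2:**
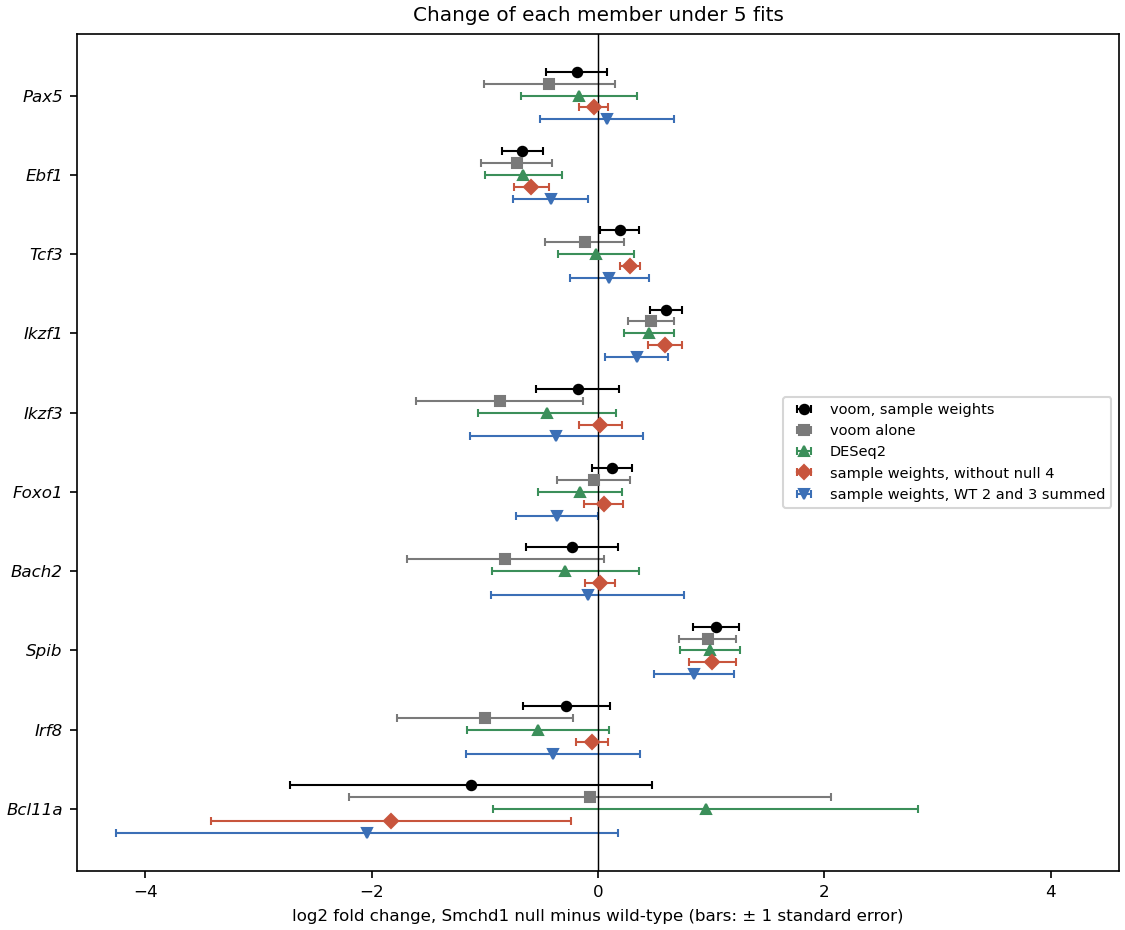
Log2 fold change of each factor, Smchd1 null minus wild-type (horizontal axis), in 5 fits marked by colour, with bars of 1 standard error to each side. Spib stays to the right of 0 in each fit, Ebf1 stays to the left, and Bcl11a lies on either side depending on the fit.

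The clearest pattern in the members belonged to a single line rather than to the genotype. In Smchd1 null replicate 4, Bach2 was at 8.69% of the median of the other 6 lines, Irf8 at 10.5%, Ikzf3 at 12.2%, Pax5 at 21.0%, Tcf3 at 41.5% and Ebf1 at 45.9%. Ikzf1 was at 106% of that median, Foxo1 at 162%, Spib at 208% and Bcl11a far above it. Under a rule set after these values were seen, more than 2-fold below the lowest other line, 5 members qualified (Pax5, Tcf3, Ikzf3, Bach2 and Irf8) where 3.32% of all genes tested did. In the opposite direction, more than 2-fold above the highest other line, Bcl11a qualified where 4.27% of genes did. Just inside the lower limit Tcf3 was at 49.7% of the lowest other line, and just outside it Ebf1 was at 53.3%. The same rule found no member on the low side in any other line except Bcl11a in Smchd1 null replicate 2. Wild-type replicate 1, which had 4.58% of all genes on the low side, had no member there. With 1 such line nothing about the null genotype follows from these values, and without it the log2 fold changes of Pax5, Ikzf3, Bach2 and Irf8 were −0.04, 0.02, 0.02 and −0.05. Tcf3, which also met the rule, moved away from 0 without that line. Its log2 fold change was then 0.28 (interval 0.07 to 0.48, limma FDR 0.0797), against 0.19 with all lines, and it was not called. In a bulk sample, fewer cells of a type and less RNA per cell cannot be told apart.

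Markers of other cell types were set beside this line. Of 8 T cell markers, 3 were at 0 counts in all 7 lines, and their summed level was 0 to 0.827 CPM in 6 lines and 56.5 CPM in Smchd1 null replicate 4. Cd5, which B-1 cells also carry, made up 55.7 CPM of that sum. The 8 myeloid markers summed to 5.85 CPM in this line and to 4.14 to 32.3 CPM in the others. The 5 plasma cell markers summed to 346 CPM, inside the range of 293 to 531 CPM of the other lines, and 292 CPM of it was Irf4, which is not restricted to plasma cells. Endothelial and stromal markers summed to at most 13.0 CPM and erythroid and megakaryocyte markers to at most 1.97 CPM in any line. The 8 mature B cell markers summed to 117 CPM in this line and to 237 to 602 CPM in the others. Most of that sum is Cd22 and Cd37, a tetraspanin, which was at 54.8 CPM here and lower still in wild-type replicate 1, at 45.2 CPM, while Ighd, Cd40 and Cd83 had their highest level in this line, at 19.7, 8.38 and 7.98 CPM. The part of other cells in the low values was otherwise not tested.

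Of the relatives of the low factors named here, Ikzf5 alone had its lowest level in Smchd1 null replicate 4. Among the E proteins, which bind E-box sites as dimers, Tcf4 was at 543 CPM in Smchd1 null replicate 4 and at 90.4 to 124 CPM elsewhere, and Tcf12 was at 211 CPM there and at 116 to 213 CPM elsewhere. Tcf3 held 34.8% and Tcf4 41.0% of the E protein sum per kb in that line, while Tcf4 held 5.86 to 9.77% in the others. The sum itself, 173 CPM per kb, lay within the range of 160 to 202 of the other lines. The inhibitors Id2 and Id3, which keep E proteins off DNA, ranged over 1.38 to 7.47 CPM and 8.35 to 92.1 CPM. Ikzf3 held 3.25% of the Ikaros family sum in Smchd1 null replicate 4 and 12.8 to 27.4% elsewhere, and Ikzf1 held 90.9% there. Ikzf5 was at 34.6 CPM there and at 41.1 to 51.9 CPM elsewhere. Bach1, the broadly expressed relative of Bach2, was at 51.2 CPM there and at 16.2 to 33.9 CPM elsewhere, so that it held 76.1% of the Bach sum against 7.68 to 17.4%. The Bach sum per kb was lower there than in any other line, 11.5 against 31.6 to 40.7.

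Irf4, which shares binding partners with Irf8, was at 292 CPM in Smchd1 null replicate 4 and at 251 to 384 CPM elsewhere. The other Irf genes above 5 CPM were Irf1 at 18.2 to 30.4, Irf2 at 80.2 to 123, Irf5 at 38.4 to 82.6 and Irf9 at 8.44 to 13.4 CPM over the 7 lines. Irf3, an interferon regulator of innate sensing, was at 65.1, 54.3 and 49.0 CPM in the wild-type lines and at 68.3, 81.8, 80.0 and 70.0 CPM in the null lines. It had a log2 fold change of 0.55 (SE 0.106, limma FDR 0.0202). Spi1, which encodes PU.1, was at 53.5 to 89.0 CPM with a log2 fold change of 0.1 (limma FDR 0.591), and Spib held 48.0 to 65.2% of the Spib and Spi1 sum per kb in wild-type and 60.4 to 73.5% in the null lines. Ebf3 was uneven, at 54.9 CPM in wild-type replicate 1, 26.7 in Smchd1 null replicate 2, 11.2 in replicate 4, 4.59 in replicate 1 and under 1 in the remaining lines. Foxo3 was at 13.0 to 37.7 CPM and Foxo4 reached 46.6 CPM. Foxo6 was at 0.276, 1.64 and 2.2 CPM in wild-type, the first from 1 count, and at 7.26, 3.21, 3.55 and 19.8 CPM in the null lines. These groups do not overlap, as for 13.2% of all genes tested, and the log2 fold change was 1.36 (SE 0.491, limma FDR 0.101). None of these Foxo genes was called. Of the small Maf proteins, which pair with Bach factors, Mafk was at 46.9, 30.7 and 33.6 CPM in wild-type and at 55.4, 49.3, 45.7 and 44.3 CPM in the null lines, with a log2 fold change of 0.62 (SE 0.117, limma FDR 0.0188). Mafg was at 22.4 to 35.0 and Maff at 0.827 to 7.58 CPM.

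**Figure D3:**
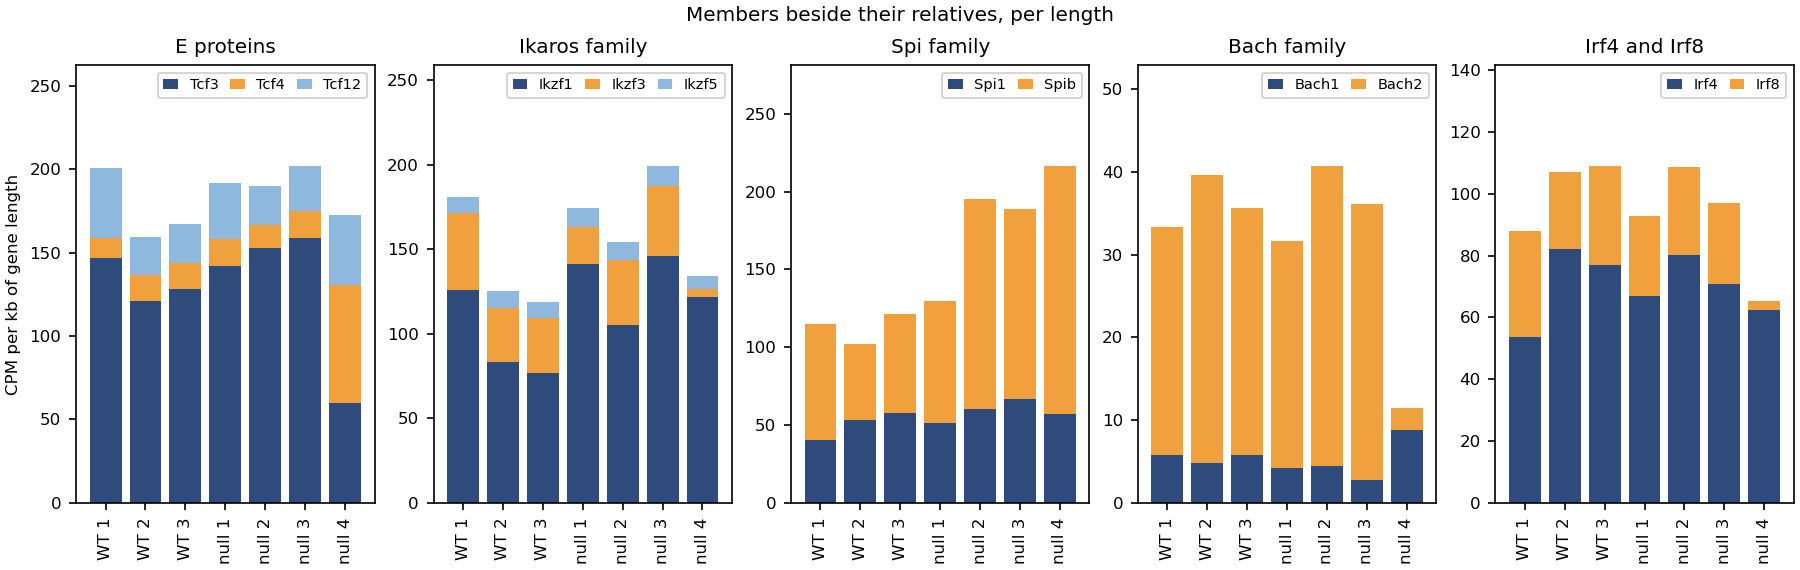
Stacked level of members and their relatives in CPM per kb (vertical axes, linear, from 0) in each of the 7 lines. In Smchd1 null replicate 4 the segments of Tcf3, Ikzf3, Bach2 and Irf8 are the shortest of all lines, and Tcf4 and Bach1 hold 41.0% and 76.1% of their bars.

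Genes known to be regulated by the members were then listed and counted, beside the shares of all genes tested that were higher (5.06%) or lower (6.85%) in the null lines. Of 15 genes activated by Pax5, 12 were tested and 2 were higher, Spib itself and Cd79a, a signalling chain of the B cell receptor. The list had a median log2 fold change of −0.21, and 8 of its 12 tested genes had their lowest level in Smchd1 null replicate 4, as did 19.3% of all genes tested. The 8 include Bach2, Ikzf3 and Irf8, described above. Of the 8 tested genes that are not members, 5 were lowest there. Cd79a was at 231, 181 and 211 CPM in wild-type and at 409, 414, 444 and 100 CPM in the null lines, with a log2 fold change of 0.96 (SE 0.25, limma FDR 0.0445). Its first 3 null lines are high and the last is the lowest of all 7. In that line Blnk, the adaptor of B cell receptor signalling, was at 40.7 CPM against 146 to 300, and Cplx2 was at 0.133 CPM against 14.5 to 114.

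Of 11 genes repressed by Pax5, 5 were tested, 1 was lower and none higher, with a median of −0.71. Notch1, the receptor that directs progenitors to the T lineage, was at 18.2, 47.9 and 41.2 CPM in wild-type and at 17.3, 24.4, 19.6 and 49.2 CPM in the null lines, with a log2 fold change of −0.98 (SE 0.242, limma FDR 0.0385). The groups overlap at both ends. In Smchd1 null replicate 4, 2 of the 5 tested genes, Notch1 and Flt3, had their highest level, as did 23.8% of all genes tested. Of the same 5, 1 had its lowest level there, as did 19.3% of all genes tested: Xbp1, at 13.7 CPM against 20.1 to 81.3. Sdc1 was at 24.6 CPM there and at 18.7 to 73.9 CPM elsewhere, and Csf1r at 0 there and 0 to 1.93 CPM elsewhere. Flt3, a cytokine receptor of early progenitors, was at 128 CPM there and at 1.08 to 12.4 CPM elsewhere. Cd28, a T cell costimulatory receptor, was at 19.0 CPM there and at 0 counts elsewhere. Prdm1, the plasma cell regulator, was at 14.8 CPM there and at no more than 2.48 CPM elsewhere. Cd28 and Prdm1 did not pass the filter and were not tested.

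Of 12 tested genes activated by Ebf1 and E2A, Cd79a was the single call and the median was −0.22. Of these 12, 4 had their lowest level in Smchd1 null replicate 4, where 19.3% of all genes tested did. Among the 10 that are not members 3 did. Pou2af1, a B cell coactivator, was at 14.9 CPM there and at 1074 to 1234 CPM elsewhere. In the same line Blk had its highest level, at 44.8 CPM, while Cd79b, at 303 CPM, lay inside the 262 to 444 CPM of the other lines. Of 12 genes activated by Foxo1, 3 were lower and none higher, with a median of −0.82, where 6.85% of all genes were lower. Ccng2, an atypical cyclin, was at 45.8, 83.2 and 86.5 CPM in wild-type and at 21.3, 26.3, 46.0 and 23.3 CPM in the null lines, with a log2 fold change of −1.58 (SE 0.219, limma FDR 0.0103). Pik3ip1, an inhibitor of PI3K, was at 11.3, 13.3 and 17.3 CPM in wild-type and at 2.52, 4.34, 5.56 and 18.8 CPM in the null lines, with a log2 fold change of −1.75 (SE 0.367, limma FDR 0.0246). Cdkn1b, which encodes the cell cycle inhibitor p27, was at 55.7, 102 and 115 CPM and at 61.0, 50.3, 61.9 and 105 CPM, with a log2 fold change of −0.85 (SE 0.182, limma FDR 0.0267). The groups touch or overlap in all 3 genes, and Foxo1 RNA itself had a log2 fold change of 0.12.

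Among 14 partners and upstream regulators of the members 2 were lower and none higher, with a median of −0.19, again beside 6.85% of all genes. Chd4, the remodelling subunit of the NuRD complex that Ikaros recruits, was at 604 to 685 CPM in wild-type and 460 to 574 CPM in the null lines, which do not overlap, with a log2 fold change of −0.39 (SE 0.103, limma FDR 0.0448). Gatad2b, of the same complex, was at 51.8 to 70.0 and 39.4 to 60.1 CPM, with −0.53 (SE 0.141, limma FDR 0.0474). Of 20 further regulators of B cells 17 were tested and none was called by limma in either direction. With wild-type replicates 2 and 3 summed, none of these 9 called list genes kept an FDR under 0.05, and the log2 fold changes were −1.22 for Ccng2, −1.65 for Pik3ip1, −0.45 for Cdkn1b, −0.55 for Notch1, 0.86 for Cd79a, 0.45 for Irf3, 0.45 for Mafk, −0.36 for Chd4 and −0.35 for Gatad2b. Voom without sample weights and edgeR called 0 of the 9, and DESeq2 called Ccng2 alone. Over all alternatives the signs held, but the sizes fell to as little as −0.38 for Notch1, −0.37 for Cdkn1b, −0.85 for Pik3ip1 and 0.52 for Cd79a.

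**Figure D4:**
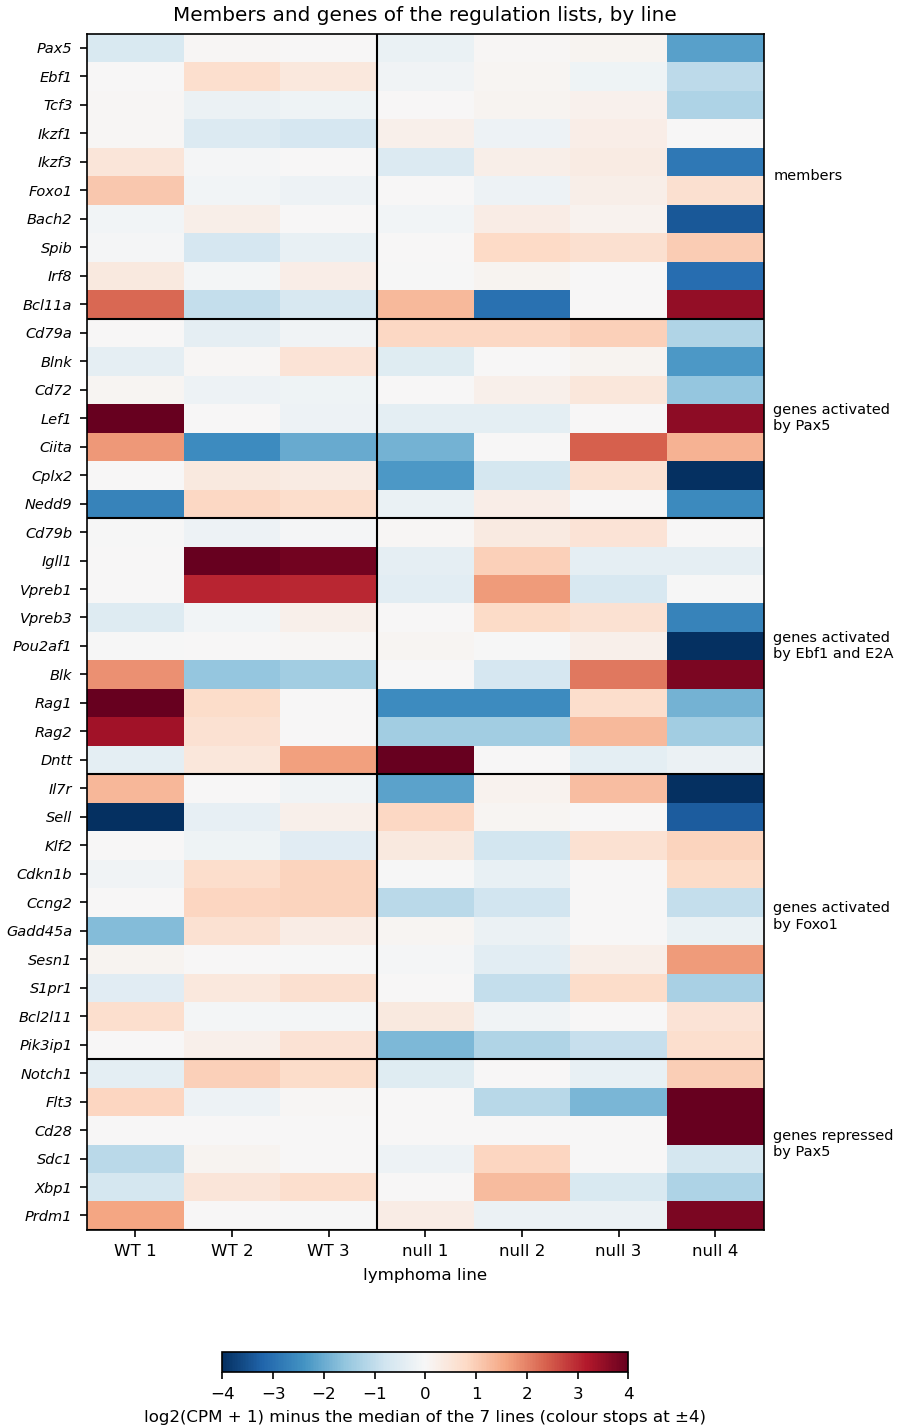
Heat map of the members and of listed target genes, by line (columns); colour is log2(CPM + 1) minus the median of the 7 lines. The column of Smchd1 null replicate 4 holds the lowest values of Bach2, Irf8, Ikzf3 and Pou2af1 and the highest of Flt3.

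The genes whose pattern over the 7 lines lay closest to each member were found as the smallest root mean square difference in log2 CPM after centring, a description with no test. The nearest to Irf8 were Hes1 at 0.155, Nat8l at 0.165 and Cuedc1 at 0.227, and Hes1 was also close to Ikzf3, at 0.231 after Bcl7a at 0.204 and 2810039B14Rik at 0.136. Bach2 was closest to Hus1b at 0.223, Cd22 at 0.226 and Ap1m2 at 0.253. Each of these genes has its lowest level in Smchd1 null replicate 4, and Bach2, Irf8 and Ikzf3 lay 0.272 to 0.356 from each other. Pax5 was closest to Otub2 (0.185), Epsti1 (0.201) and Ube2d-ps (0.221), and Tcf3 to Dhx33 (0.0606), Surf6 (0.128) and Gramd4 (0.131). Spib was closest to Nrm (0.162), Pipox (0.169) and Nmi (0.199), and Ikzf1 to Taf4b (0.0939), Apbb1ip (0.0967) and Ppargc1b (0.103). Ebf1 was closest to Zfp568 (0.101), then to Bach2os and Gm7160 at 0.158 each, genes with few reads. Foxo1 was closest to Mrpl39 (0.0564), Smim8 (0.0873) and Nit2 (0.0976). Bcl11a had no close match, with Lrrc8c at 0.781, Nek6 at 0.784 and Ccdc92 at 1.19. For comparison, the median difference over all genes tested was between 0.496 for Ikzf1 and 2.48 for Bcl11a.

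Start regions of 5 members are printed because their RNA carried the differences above: Spib between the groups, and Pax5, Bach2, Irf8 and Bcl11a in the single line. Windows were taken from RefSeq (GRCm38.p6), with 250 bases before and 50 after an annotated start, and 9 of 10 members had one (Ikzf3 did not). Each is printed 5′ to 3′ on the strand of the gene, with letters in capitals where a motif was found. The windows lie at chr7:44532022-44532321 (minus strand) for Spib, chr4:44710645-44710944 (minus) for Pax5, chr4:32417185-32417484 (plus) for Bach2, chr8:120736108-120736407 (plus) for Irf8 and chr11:24080445-24080744 (plus) for Bcl11a. The Bach2 and Bcl11a windows lie inside the span that the files give for these genes, and other starts were not examined.
Spib: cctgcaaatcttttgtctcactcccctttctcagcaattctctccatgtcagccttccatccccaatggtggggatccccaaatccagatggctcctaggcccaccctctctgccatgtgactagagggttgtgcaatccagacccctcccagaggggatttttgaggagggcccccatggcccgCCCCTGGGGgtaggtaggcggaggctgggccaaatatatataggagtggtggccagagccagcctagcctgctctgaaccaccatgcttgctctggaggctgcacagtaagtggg
Pax5: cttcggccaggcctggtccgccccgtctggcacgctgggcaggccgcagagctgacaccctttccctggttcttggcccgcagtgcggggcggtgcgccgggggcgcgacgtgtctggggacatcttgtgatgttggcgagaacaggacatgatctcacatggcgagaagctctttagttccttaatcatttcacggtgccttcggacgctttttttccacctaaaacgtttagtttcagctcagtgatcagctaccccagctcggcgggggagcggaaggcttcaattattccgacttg
Bach2: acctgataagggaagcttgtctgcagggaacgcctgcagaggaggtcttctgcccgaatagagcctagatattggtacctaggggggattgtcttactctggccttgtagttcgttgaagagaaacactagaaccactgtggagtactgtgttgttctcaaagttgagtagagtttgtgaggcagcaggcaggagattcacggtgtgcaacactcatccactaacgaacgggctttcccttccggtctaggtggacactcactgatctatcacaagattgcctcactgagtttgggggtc
Irf8: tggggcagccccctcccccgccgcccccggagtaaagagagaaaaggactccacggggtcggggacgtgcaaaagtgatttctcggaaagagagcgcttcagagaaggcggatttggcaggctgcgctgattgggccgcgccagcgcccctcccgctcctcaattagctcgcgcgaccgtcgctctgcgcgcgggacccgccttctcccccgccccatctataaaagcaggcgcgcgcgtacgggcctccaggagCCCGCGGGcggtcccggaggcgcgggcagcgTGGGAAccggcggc
Bcl11a: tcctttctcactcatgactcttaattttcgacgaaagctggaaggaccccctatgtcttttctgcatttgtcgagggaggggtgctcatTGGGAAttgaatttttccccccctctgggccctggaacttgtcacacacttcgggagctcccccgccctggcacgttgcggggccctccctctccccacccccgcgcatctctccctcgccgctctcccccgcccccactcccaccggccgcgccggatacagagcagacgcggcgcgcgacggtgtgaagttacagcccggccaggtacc

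The windows differ most in CpG content. The Spib window has 2 CpG and the Bach2 window 7, which is also the median of all 32851 windows, while Pax5 and Bcl11a have 23 each and Irf8 has 38. Letters bound by members, and the octamer, which is not a site of any member, were searched on both strands. The E2A E-box (CAGCTG or CAGGTG) was in 32.9% of all windows and in none of the 9 member windows. The Ebf1 palindrome (CCCNNGGG, 13.7% of windows) was in the Spib window as overlapping matches at −65 and −64, in Irf8 at 5, in Ikzf1 at −56 and in Foxo1 at −91, counted from the start site. The Ikaros core (TGGGAA, 25.6%) was in Irf8 at 36 and in Bcl11a at −161. The PU.1 and Spi-B site (GAGGAAGT, 3.2%) and the octamer (ATGCAAAT, 1.74%) were in none. A match is a run of letters and not a measured site, and a window without one says nothing about the factor.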

How the data were processed

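RNA from 7 Eµ-Myc lymphoma lines (3 wild-type, 4 Smchd1 null) was sequenced from unstranded TruSeq libraries. The deposited values are raw counts per gene. The authors aligned reads to mm10 with Subread and counted them with featureCounts, and per the labels CASAVA 1.8.2, edgeR 3.8.2 and limma 3.22.0 were used. Counts of the whole table were analysed here in R 4.3.3 with limma 3.58.1 and edgeR 4.0.16. A gene was kept if 3 or more samples reached 0.5 CPM (12303 genes), scaled by TMM and fitted by voom with sample weights on genotype alone, at a Benjamini-Hochberg FDR of 0.05 over all genes. CPM values use the library total of assigned reads, with counting error only in the limit of 3 counts. Alternatives were DESeq2 1.42.0, edgeR's quasi-likelihood test, other weights, scaling and filters, batch as a covariate, each sample left out, and a replicate block. Replicate numbers were treated as labels only. Deviations of same-numbered samples from their group means correlated at −0.154, 0.224 and −0.206, and those of other pairs at −0.236 to 0.206. With wild-type replicates 2 and 3 so alike, these values cannot show or exclude pairing. Members and lists were chosen with earlier results of these data known. Named are the members, called genes of each list, relatives reaching 5 CPM, the 3 nearest patterns, and markers at 0 or setting a line apart. Starts matched RefSeq by symbol. Certain genes of the lists are not reported here.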

Additional observations from a re-analysis of the deposited data

Results flagged for a closer look

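Each of the 10 members was screened for a line far from the others within the 4 Smchd1 null samples, as the gap to the nearest line divided by the range on the scale of log2(CPM + 0.5), against Dixon's critical value for 4 samples. The ratio was 0.959 for Irf8, 0.89 for Bach2, 0.887 for Tcf3 and 0.833 for Pax5, with Smchd1 null replicate 4 the lowest each time. Chance alone passes this limit in about 1 of 20 groups, and these 4 members share the same 4 libraries, so they are not 4 separate signs.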

How the results depend on the processing

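Of the 3 calls, Spib had log2 fold changes of 0.76 to 1.22, Ikzf1 of 0.31 to 0.79 and Ebf1 of −0.84 to −0.33 over all alternatives, so their signs held, but the FDR did not. The counts of all genes and of members called were 12 and 0 for voom alone and for edgeR's quasi-likelihood test, 493 and 0 with a shared weight for all but wild-type replicate 1 and Smchd1 null replicate 4, 521 and 0 with those 2 libraries removed, 382 and 1 with DESeq2, and 1 and 0 with wild-type replicates 2 and 3 summed. The cause was not tested beyond the samples or weights each changes. With a replicate block they were 222 and 0, although the labels do not say that the numbers pair the samples. Leaving out each sample gave 1 to 1683 genes and 0 to 3 members. No member was called without wild-type replicate 2 or 3, and 1 was without Smchd1 null replicate 1, 2 or 3. Without the filter on low counts Ebf1 lost its call. Signs of uncalled members turned. Pax5 had 0.08 with the pair summed, 0.06 under the block and −0.34 to 0.11 with a sample left out. Tcf3 had −0.12 for voom alone and −0.02 for edgeR and DESeq2, but 0.28 with those libraries removed and 0.29 under the block (limma FDR 0.149 and 0.191). Ikzf3 had 0.01 with those libraries removed, 0.16 under the block and −0.39 to 0.02 with a sample left out. Foxo1 had −0.04 for voom alone, −0.16 for edgeR and DESeq2, −0.36 summed, −0.08 under the block and −0.43 to 0.33 with a sample left out. Bach2 had 0.08 and Irf8 0.01 under the block, and Bach2 −0.54 to 0.02 with a sample left out. Bcl11a had 0.97 for edgeR, 0.95 for DESeq2 and −2.5 to 1.89 with a sample left out. Alternatives for the called list genes were added after seeing the data. Depth limits Bcl11a most, at 0 to 28 counts in 3 lines.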

Other observations

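Genes that Foxo1, E2A and Ebf1 drive in B cell precursors were spread unevenly over the lines. Rag1, of the recombinase that joins immunoglobulin segments, was at 126 CPM in wild-type replicate 1 and at 0 to 8.37 CPM in the other 6. Rag2 was at 25.9 CPM in wild-type replicate 1 and at most 5.41 CPM elsewhere. Foxo1 was highest in wild-type replicate 1 and next highest in Smchd1 null replicate 4, where Rag1 was at 0.532 CPM and Rag2 at 0. Whether Foxo1 and Rag levels are related was not tested. Dntt, which adds bases at the joins, was at 96.0 CPM in Smchd1 null replicate 1 and at no more than 3.08 CPM elsewhere. The surrogate light chain gene Igll1 was at 33.6 and 17.4 CPM in wild-type replicates 2 and 3 and at no more than 1.45 CPM in the others. Il7r, the interleukin-7 receptor, was at 0.266 CPM in Smchd1 null replicate 4 and at 6.81 to 84.4 CPM elsewhere. None of these was called between the groups by limma. Of 8 precursor B markers, 6 were tested and 0 had a positive log2 fold change. Their median was −3.87, beside −0.006 over all genes, with standard errors from 0.889 for Il7r to 2.55 for Igll1. The 8 summed to 237, 91.9 and 69.2 CPM in the wild-type lines and to 103, 42.7, 93.1 and 1.46 CPM in the null lines, which overlap.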
